A study of Homo sapiens with 8 samples.

Results

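The keratin genes of epithelial cells were followed across 8 mRNA-seq libraries of HCT116, a human colorectal carcinoma line, as a set of 10 made up of KRT7, KRT8, KRT18, KRT19, KRT20, KRT23, KRT80, KRT81, KRT86 and KRT10. They were picked by gene symbol as keratins of simple and intestinal epithelium and others found in carcinoma lines, with earlier results of these data known. All 10 were present among the 42125 genes of the TFAP2C siRNA count table and the 23393 genes of the SAE2 kd count table, and all 10 passed the expression filter in each. The paper's culture methods describe HCT116 with a stable Tet-On shRNA against UBA2. UBA2, also named SAE2, is the catalytic subunit of the SUMO activating enzyme. No separate HCT116 line is named there for the siRNA experiment, and the sample titles give only HCT116. In the first experiment cells received a control siRNA or a TFAP2C siRNA for 48 hrs. In the second they received 1 μg/mL of doxycycline for 5 days (SAE2 kd), while the controls were labelled as given DMSO for 5 days. Each of the 4 groups had 2 replicates, and no source used here says whether these were separate cultures, so the spread may be technical.

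Keratins are the intermediate filament proteins of epithelial cells. Each filament is built from obligate pairs of an acidic type I keratin and a basic type II keratin, and simple epithelia such as the gut lining rely on KRT8 as the type II partner and KRT18, KRT19 and KRT20 as type I partners. Among the genes followed, KRT7, KRT8, KRT80, KRT81 and KRT86 are type II, and KRT10, KRT18, KRT19, KRT20 and KRT23 are type I. TFAP2C is an AP-2 transcription factor, a family known for binding at promoters of epithelial genes.

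The RefSeq promoter table (GRCh38.p14) held 3 of the 10 genes, KRT8, KRT20 and KRT10, and the 250 bases before the start of each are shown because AP-2 is the factor knocked down. They were searched on both strands for the AP-2 motif GCCNNNGGC, the AP-1 motif TGANTCA and the TATA box TATAAA, with capitals marking any match. All 3 windows lie on the minus strand of the genome, at chr12:52926470-52926719 for KRT8, chr17:40885243-40885492 for KRT20 and chr17:40822615-40822864 for KRT10.
KRT8: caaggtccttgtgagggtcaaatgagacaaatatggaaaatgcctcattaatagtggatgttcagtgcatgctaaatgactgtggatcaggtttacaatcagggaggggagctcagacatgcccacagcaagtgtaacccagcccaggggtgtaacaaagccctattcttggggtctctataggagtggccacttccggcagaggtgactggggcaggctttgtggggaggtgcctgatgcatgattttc
KRT20: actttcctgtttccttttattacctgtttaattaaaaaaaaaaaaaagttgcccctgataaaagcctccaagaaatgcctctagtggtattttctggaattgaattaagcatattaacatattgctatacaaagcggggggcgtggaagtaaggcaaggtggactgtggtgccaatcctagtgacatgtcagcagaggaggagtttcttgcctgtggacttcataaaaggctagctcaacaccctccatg
KRT10: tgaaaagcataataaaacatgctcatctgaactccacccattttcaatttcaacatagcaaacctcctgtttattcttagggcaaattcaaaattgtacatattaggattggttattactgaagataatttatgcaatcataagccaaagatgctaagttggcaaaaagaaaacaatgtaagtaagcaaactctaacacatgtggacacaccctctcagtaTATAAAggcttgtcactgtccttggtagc

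The KRT10 window held a TATA box at bases -29 to -24 from the start, and the other windows held no match to any of the 3 motifs. Over 35116 promoter windows of this length, 19.8% held the AP-2 motif, 6.57% the AP-1 motif and 10.7% the TATA box. The KRT8 row of the count table runs from 52897187 to 52949954 on chromosome 12 (GRCh38), so it extends both upstream and downstream of this window. The window thus covers 1 start of KRT8, and any other start within the row was not searched. GC content was 50.4% for KRT8, 41.2% for KRT20 and 34.8% for KRT10, against a median of 58.0% over all windows.

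Total counts ranged from 20785035 to 24465109 in the TFAP2C siRNA table and from 18213739 to 20607813 in the SAE2 kd table. TFAP2C mRNA was 18.9 and 20.5 CPM (counts relative to the library size, which was scaled by TMM) with control siRNA and 3.46 and 4.30 CPM with TFAP2C siRNA, a log2 fold change of -2.34 (adjusted p = 7.67e-06 by edgeR). UBA2 mRNA was not detectably lower with doxycycline, at a log2 fold change of -0.036 (95% confidence interval -0.15 to 0.078, adjusted p = 0.766, edgeR). These samples are therefore written as the libraries labelled SAE2 kd. Doxycycline was given only to them and DMSO only to their controls, so drug, vehicle and shRNA cannot be told apart. The TFAP2C siRNA replicates stood further apart than any other pair, with a chi-square of 8.97 per degree of freedom over genes against 2.55 to 2.75 for the other pairs. Of 16 markers of colon epithelium, 6 and 5 reached 1 CPM in every library of the tables, among them EPCAM, CDH1, CLDN4 and CLDN7, and their summed level ran from 697 to 799 CPM. CEACAM6, TFF3, FABP1 and SLC26A3 of the same list were at 0 in all libraries. Summed levels were 34.3 to 101.6 CPM for 12 mesenchymal markers, 3.25 to 4.59 CPM for 12 blood markers and 0.483 to 2.79 CPM for 7 endothelial markers. Of the mesenchymal markers, 4 reached 1 CPM in every library of each experiment, while COL1A2, LUM and DCN were at 0 in all libraries. MS4A1 and CLDN5 were also at 0 in all libraries.

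In both experiments 3 keratins of simple epithelium, KRT8, KRT18 and KRT19, made up nearly all of the keratin signal followed. Together they held 97.5% to 97.8% of the counts of the 10 genes in the TFAP2C siRNA experiment and 94.6% to 95.5% in the other. The 10 genes took 0.257% to 0.308% of all counts in the TFAP2C siRNA experiment and 0.180% to 0.211% in the SAE2 kd experiment. Mitochondrial genes held 9.79% to 9.96% of all counts in the former and 0% in the latter, so the totals differ in content. Summed over the 10, the level was 2530 and 2637 CPM with control siRNA and 3142 and 2855 CPM with TFAP2C siRNA. It was 1791 and 1786 CPM in the DMSO controls and 2132 and 2008 CPM in the libraries labelled SAE2 kd. The sums were higher in each knockdown group than in its controls without overlap, and no test was made on a sum over chosen genes.

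Levels of different genes were compared as RPKM, CPM divided by the gene length in kb that the table gives. These lengths were 6.87 kb for KRT8, 3.065 kb for KRT18 and 3.985 kb for KRT7 in the TFAP2C siRNA experiment. In the SAE2 kd experiment they were 2.255, 1.907 and 1.693 kb, so the orders also depend on the annotation. By mean CPM with control siRNA, KRT8 stood above KRT18 (870 against 461) and KRT7 above KRT20 and KRT86 (2.94 against 2.66 and 2.17). With control siRNA the order began with KRT19 at 499 and 520 RPKM, KRT18 at 146 and 155 RPKM, and KRT8 at 125 and 129 RPKM. KRT10, a keratin best known from the differentiated epidermis, came next at 10.4 and 11.6 RPKM, above KRT23, a type I keratin described in several carcinomas, at 5.83 and 5.44 RPKM. KRT80 (2.67 and 2.72 RPKM) and KRT81 (2.18 and 3.05 RPKM) overlapped. KRT20, the keratin of differentiated gut epithelium, stood at 1.54 and 1.36 RPKM, KRT86 at 1.02 and 0.805 RPKM and KRT7 last at 0.731 and 0.746 RPKM.

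In the DMSO controls KRT8 led with 437 and 432 RPKM, before KRT18 at 301 and 306 RPKM and KRT19 at 104 and 97.7 RPKM. KRT7, at 11.5 and 12.2 RPKM, overlapped with KRT10 at 11.3 and 11.8 RPKM. KRT23 followed at 6.22 and 6.40 RPKM, KRT80 at 3.89 and 4.08 RPKM and KRT81 at 0.832 and 1.19 RPKM. KRT20 at 0.297 and 0.533 RPKM and KRT86 at 0.179 and 0.241 RPKM were lowest.

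**Figure D1:**
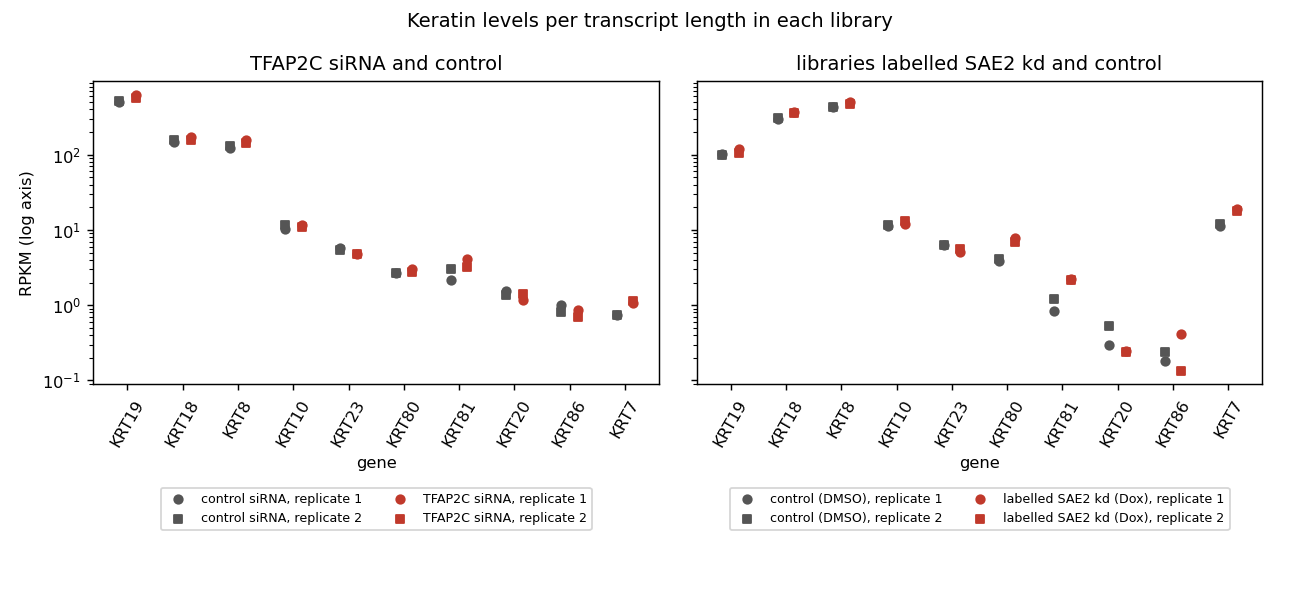
RPKM of the 10 keratins in each library on a log axis, with genes in the order of the control siRNA libraries, controls in grey and knockdown libraries in red. KRT8, KRT18 and KRT19 lie at or above 97.7 RPKM in every library, while KRT7 is last with control siRNA and beside KRT10 in the DMSO controls.

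KRT19 and KRT7 stood far apart between the control groups of the tables, which were normalized separately and counted on different annotations. Mitochondrial counts were present only in the TFAP2C siRNA table, so CPM has a different base in each. KRT19 averaged 1187 CPM with control siRNA and 147 CPM in the DMSO controls, 8.05 times as much, whereas KRT7 was 6.80 times as high in the DMSO controls (19.4 and 20.6 CPM against 2.91 and 2.97 CPM). KRT20 and KRT86, both at low counts, were 3.57 and 4.33 times as high with control siRNA, and for KRT10, KRT23 and KRT8 the control groups of the tables differed by at most 1.13 times. In the SAE2 kd table the row of JUP, a desmosome protein, begins at the same base as the KRT19 row (chromosome 17, 39679869, hg19) and covers all of its 4773 bp on the same strand. In the TFAP2C siRNA table the JUP row begins at 41754604 (GRCh38) and does not reach KRT19, which ends at 41528308. JUP itself had 260 CPM in the DMSO controls and 509 CPM with control siRNA. The SAE2 kd table also lists KRT19P2, a KRT19 pseudogene on chromosome 12, with 322 to 482 counts a library. The KRT7 row shares 2887 bp with KRT86 on the same strand in the TFAP2C siRNA table and none in the other. The part of these rows in the levels was not tested.

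Of the 10 keratins, 5 rose in the libraries labelled SAE2 kd and none fell at an adjusted p under 0.05, the threshold used throughout. These were KRT80, KRT81, KRT7, KRT18 and KRT8. Over all 13381 genes tested, 9.98% passed, 5.52% as higher and 4.47% as lower. The median log2 fold change of the 10 genes was 0.21, against -0.00042 over all genes. The 5 passed also with the Wald test of DESeq2, with other size factors and without a filter on low counts. Comparisons are two-sided and made by edgeR's quasi-likelihood test with Benjamini-Hochberg adjustment over all genes.

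KRT80, a type II keratin found broadly in epithelia, rose with the smallest adjusted p of the set (chromosome 12, 52562780 to 52585784, hg19). Its level was 16.9 and 17.7 CPM in the controls and 34.2 and 29.8 CPM in the libraries labelled SAE2 kd. Both labelled libraries were far above both controls, and replicate 1 was the higher of them. This was a 1.84-fold rise, 0.88 ± 0.090 on the log2 scale (standard error, adjusted p = 7.69e-09). With single libraries left out it stayed between 0.78 and 0.98.

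KRT81, a hair keratin of type II that is also expressed in some carcinomas, had the largest fold change at low counts (chromosome 12, 52679697 to 52702155, hg19). It had 40 and 64 counts in the controls and 104 counts in each labelled library, or 2.14 and 3.07 CPM against 5.77 and 5.59 CPM. The groups did not overlap, and the controls differed from each other more than the labelled libraries did. This was a 2.16-fold rise, 1.11 ± 0.19 on the log2 scale (adjusted p = 7.57e-05), and 0.89 to 1.41 when single libraries were left out. KRT81, KRT83 and KRT86 are near-identical hair keratins between which reads could be split, and the KRT81 row lies within that of KRT86 on the other strand. Counted as a sum of the 3 rows, the log2 fold change was 1.06 (adjusted p = 7.57e-05).

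KRT7, the type II keratin of ducts and of glandular epithelia other than the colon, rose 1.54-fold (chromosome 12, 52626954 to 52642709, hg19). Its level was 19.4 and 20.6 CPM in the controls and 31.7 and 30.02 CPM in the labelled libraries. The replicates of each group lay close together, and the groups were well separated. On the log2 scale the rise was 0.62 ± 0.085 (adjusted p = 2.34e-06). Relative to KRT8, KRT7 went from 1.97% and 2.11% of its CPM to 2.77% and 2.80%.

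The main pair of simple epithelium, KRT18 and KRT8, rose by smaller amounts. KRT18 (chromosome 12, 53342655 to 53346685, hg19) had 573 and 584 CPM in the controls and 699.9 and 676 CPM in the labelled libraries. All labelled values were above all control values, with a 1.19-fold rise, 0.25 ± 0.042 on the log2 scale (adjusted p = 7.79e-05). KRT8 (chromosome 12, 53290971 to 53343650, hg19) had 986 and 975 CPM in the controls and 1145 and 1071 CPM in the labelled libraries. It rose 1.13-fold, 0.18 ± 0.041 on the log2 scale (adjusted p = 0.00405), and the groups did not overlap. Without replicate 1 of the labelled libraries KRT8 did not pass (log2 fold change 0.13, adjusted p = 0.0713), nor did it in a fit of all 8 libraries (0.18, adjusted p = 0.0930), and over its alternatives the adjusted p ran from 4.13e-05 to 0.0930. The rows of KRT8 and KRT18 overlap by 996 bp on opposite strands, and the strand setting of the counting is not given in the sources used here.

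The other 5 keratins did not pass in the libraries labelled SAE2 kd. KRT19 had 152 and 143 CPM in the controls and 175 and 153 CPM in the labelled libraries. The groups were separated by less than 1 CPM, and the log2 fold change was 0.15 (95% confidence interval 0.032 to 0.27, adjusted p = 0.105). Without replicate 2 of the labelled libraries it was 0.25 and passed (adjusted p = 0.00140, in a range of 0.00140 to 0.737 over its alternatives), and summed with KRT19P2 it was 0.15 (adjusted p = 0.0909). KRT23 was lower in both labelled libraries, at 13.4 and 14.6 CPM against 16.3 and 16.8 CPM, with a log2 fold change of -0.25 (95% confidence interval -0.46 to -0.039, adjusted p = 0.133). KRT10 had 24.1 and 25.2 CPM against 25.3 and 27.7 CPM, a log2 fold change of 0.10 (adjusted p = 0.522). The KRT10 row shares 3520 bp with that of TMEM99 on the other strand (3509 bp in the TFAP2C siRNA table). TMEM99 averaged 20.3 CPM in the DMSO controls and 20.5 CPM in the labelled libraries. KRT20 and KRT86 were at low counts. KRT20 had 10 and 20 counts in the controls and 8 in each labelled library (log2 fold change -0.78, 95% confidence interval -1.71 to 0.14). KRT86 had 8 and 12 counts in the controls and 18 and 6 in the labelled libraries (log2 fold change 0.37, 95% confidence interval -0.61 to 1.36). At this depth a change of 2-fold lay within the interval of each, as a decrease for KRT20 and as an increase for KRT86.

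**Figure D2:**
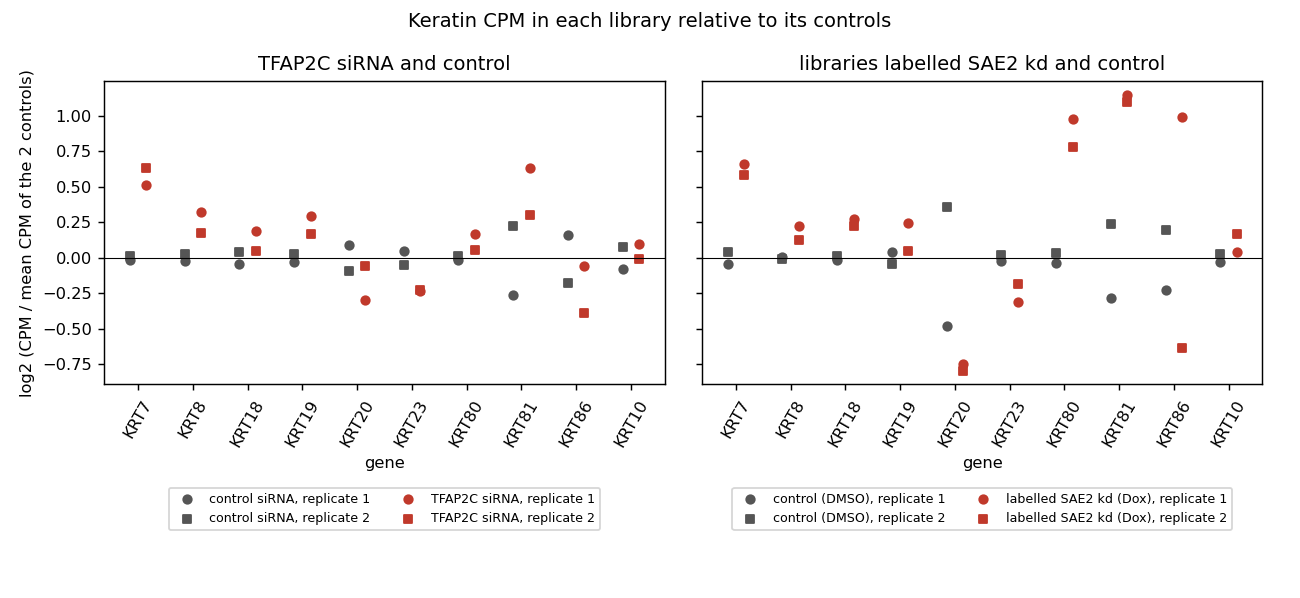
CPM of each keratin in each library as log2 of its ratio to the mean of the 2 controls of the same experiment, controls in grey and knockdown libraries in red. In the right panel the labelled SAE2 kd libraries of KRT7, KRT80 and KRT81 stand clear of the controls, and in the left panel replicate 1 of TFAP2C siRNA is the higher for KRT8, KRT18, KRT19, KRT80 and KRT81.

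Both labelled libraries were above both controls for 7 of the 10 keratins, against 25.5% of all genes tested, and below both for KRT20 and KRT23, 2 of 10, against 25.8%.

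With TFAP2C siRNA, none of the 10 keratins passed, where 0.740% of 14991 genes tested did, 0.260% as higher and 0.480% as lower. The Wald test of DESeq2 also called 0. At an unadjusted p under 0.05 there were 5 keratins by edgeR and 2 by DESeq2, against 12.6% of all genes by edgeR. Those 5 were KRT7, KRT8, KRT19 and KRT81, with log2 fold changes above 0, and KRT23, with a value below 0. The median over the 10 genes was 0.12, against -0.0038 over all genes. Without a filter on low counts KRT7, KRT8, KRT19 and KRT81 passed, where 142 genes were higher and 256 lower of 24781 tested. Without TFAP2C siRNA replicate 2 KRT8, KRT18, KRT19 and KRT81 passed, but so did 1330 genes as higher and 1495 as lower of 15538. That fit takes its spread from the controls alone and assumes that the lone knockdown library varies like them, while the pair it breaks up was the one that stood furthest apart.

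KRT7 showed the largest fold change with TFAP2C siRNA. It had 71 and 62 counts with control siRNA and 101 and 102 with TFAP2C siRNA, or 2.91 and 2.97 CPM against 4.21 and 4.56 CPM. The groups were apart by more than the spread within each, and the log2 fold change was 0.57 ± 0.16 (standard error, 95% confidence interval 0.22 to 0.93, adjusted p = 0.170). Over the alternatives the adjusted p ran from 0.0391 to 0.804.

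KRT8 had 856 and 884 CPM with control siRNA and 1089.6 and 979.9 CPM with TFAP2C siRNA, 0.25 ± 0.073 on the log2 scale (adjusted p = 0.187). KRT19 had 1163 and 1212 CPM against 1458 and 1333 CPM, 0.23 ± 0.073 on the log2 scale (adjusted p = 0.208). For KRT8 and KRT19 both knockdown libraries lay above both controls, with replicate 1 the farther. KRT18 had 447 and 475 CPM against 526 and 477 CPM, so that knockdown replicate 2 and control replicate 2 nearly coincided (log2 fold change 0.12, adjusted p = 0.513).

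KRT81 had 4.19 and 5.85 CPM with control siRNA and 7.80 and 6.18 CPM with TFAP2C siRNA (log2 fold change 0.49 ± 0.18, adjusted p = 0.272). The control replicates differed by more than the nearest values of the groups did. Summed with KRT83 and KRT86, its log2 fold change was 0.30 (adjusted p = 0.424). KRT23 had 16.9 and 15.7 CPM against 13.8 and 13.9 CPM, below both controls in both knockdown libraries (log2 fold change -0.23, adjusted p = 0.372). KRT80, which rose most clearly in the other experiment, had 11.6 and 11.8 CPM against 13.2 and 12.2 CPM (log2 fold change 0.11, 95% confidence interval -0.12 to 0.35).

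The values of KRT20, KRT86 and KRT10 overlapped between the groups. KRT20 had 2.83 and 2.49 CPM against 2.17 and 2.55 CPM, KRT86 had 2.42 and 1.92 CPM against 2.08 and 1.66 CPM, and KRT10 had 22.4 and 25.1 CPM against 25.3 and 23.6 CPM. Both knockdown libraries lay above both controls for 6 of the 10 keratins, against 22.4% of all genes, and below both for KRT23 alone, against 22.4%.

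**Figure D3:**
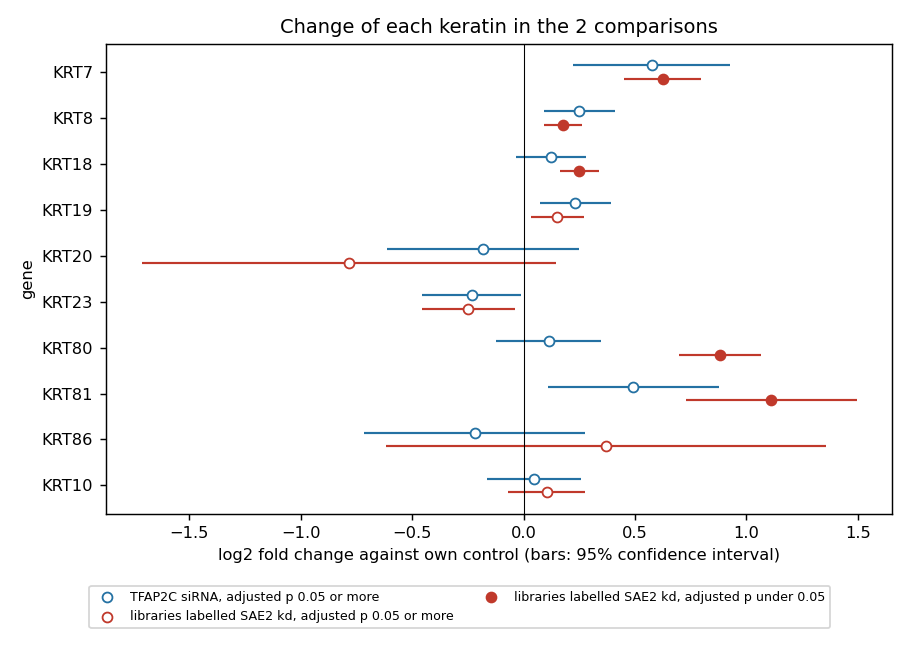
Log2 fold change of each keratin against its own control with its 95% confidence interval, for TFAP2C siRNA in blue and the libraries labelled SAE2 kd in red, filled where the adjusted p was under 0.05. The filled points are KRT7, KRT8, KRT18, KRT80 and KRT81 in red, and KRT80 is the keratin whose intervals do not overlap.

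Whether a keratin changed by different amounts in the experiments was tested over 13179 shared genes with all 8 libraries fitted together, as the change with TFAP2C siRNA less the change in the libraries labelled SAE2 kd. KRT80 passed, as did 2.37% of all genes. Its difference was -0.78 ± 0.14 (standard error, 95% confidence interval -1.08 to -0.48, adjusted p = 0.00619). It did not pass without DMSO control replicate 1 (-0.74, adjusted p = 0.0518) or without replicate 1 of the labelled libraries (-0.67, adjusted p = 0.0573), and over its alternatives the adjusted p ran from 0.000431 to 0.0573. For KRT81 the difference was -0.63 (95% confidence interval -1.23 to -0.029, adjusted p = 0.325). For KRT7, with log2 fold changes of 0.57 and 0.62, the difference was -0.063 with an interval from -0.44 to 0.31, so a moderate difference either way was not excluded. For KRT8 it was 0.060 (-0.11 to 0.23) and for KRT18 -0.14 (-0.31 to 0.030). The experiments differ in treatment, duration and counting, and these cannot be told apart in the differences.

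The ratio of KRT8 to KRT18, the partners of the main filament pair, was compared library by library. It was 1.92 and 1.86 with control siRNA and 2.07 and 2.05 with TFAP2C siRNA. It was 1.72 and 1.67 in the DMSO controls and 1.64 and 1.58 in the libraries labelled SAE2 kd. The groups of each experiment did not overlap, with knockdown libraries above their controls in the first and below them in the second, where the gap between groups (1.67 to 1.64) was smaller than the spread within each. The ratios are a description and were not tested. Summed RPKM of the 5 type II keratins went from 131 and 136 to 168 and 150.5 with TFAP2C siRNA, and that of the 5 type I keratins from 662 and 693 to 815 and 745. In the libraries labelled SAE2 kd, type II went from 454 and 449.9 to 537 and 502, and type I from 422 and 423 to 504 and 477. Gene lengths differed between the experiments, so each sum is compared only between groups of the same experiment.

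**Figure D4:**
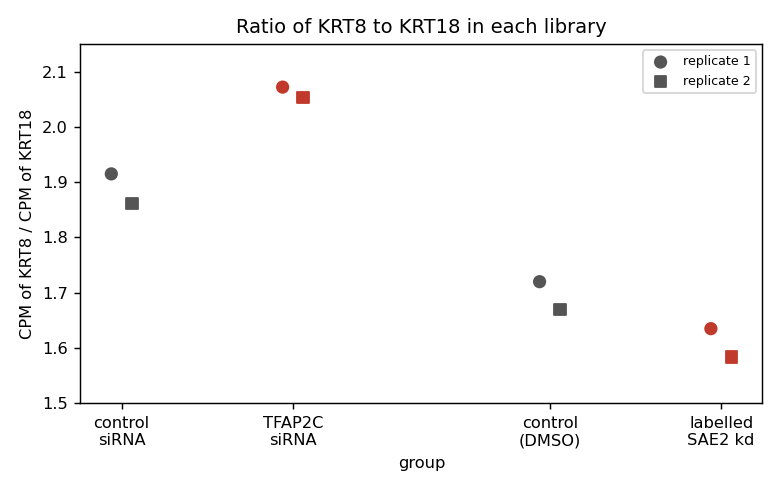
Ratio of the CPM of KRT8 to that of KRT18 in each library, controls in grey and knockdown libraries in red, on an axis that starts at 1.5. The TFAP2C siRNA libraries lie above their controls (2.05 and 2.07 against 1.86 and 1.92), and the libraries labelled SAE2 kd lie below theirs.

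Each table lists 45 other keratin genes. With TFAP2C siRNA 7 of them were tested and 0 passed, against 3 tested and 0 passed in the libraries labelled SAE2 kd. Over all genes, 0.74% and 9.98% passed. In the experiments 15 and 19 of the other keratin genes had no count in any library. KRT15, a type I keratin of basal epithelial cells, was the most abundant of the other keratin genes. It had 27.3 and 28.8 CPM with control siRNA and 34.4 and 35.8 CPM with TFAP2C siRNA, 0.33 ± 0.086 on the log2 scale (adjusted p = 0.144). In the other experiment it had 15.2 ± 1.73 CPM in the controls and 16.4 ± 0.114 CPM in the labelled libraries (SD, n = 2, log2 fold change 0.10, adjusted p = 0.632). Markers of stratified epithelium summed to 38.0 to 64.5 CPM, and KRT1, the usual type II partner of KRT10 in the epidermis, was at 0 in every library.

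Among 41 genes written down as regulators of keratin genes or of epithelial identity, 36 were tested in the libraries labelled SAE2 kd, of which 7 were higher and 1 was lower, where 5.52% and 4.47% of all genes were. Their median log2 fold change was -0.060. Among those that passed, the largest rises were in CEBPB, a bZIP factor, from 60.8 and 63.3 to 103.6 and 99.1 CPM (log2 fold change 0.71 ± 0.061, adjusted p = 1.73e-10), and in KLF4, a factor of gut epithelial differentiation, from 46.6 and 45.7 to 75.9 and 72.6 CPM (log2 fold change 0.69). FOSL1, an AP-1 subunit, rose from 148 and 150.2 to 246 and 215 CPM (log2 fold change 0.63, adjusted p = 4.55e-10). ELF3, an ETS factor of epithelial cells, fell from 69.2 and 73.4 to 48.7 and 49.7 CPM (log2 fold change -0.54, adjusted p = 2.49e-07). KLF5, JUN, ETS1 and NFE2L2 were the other genes that rose. TFAP2C itself had 7.80 and 7.81 CPM in the DMSO controls and 5.94 and 6.87 CPM in the labelled libraries (log2 fold change -0.28, adjusted p = 0.222).

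With TFAP2C siRNA, 35 of the 41 regulators were tested, of which 1 was higher and 2 were lower, the knocked-down TFAP2C included (0.260% and 0.480% of all genes), at a median of 0.020. FOSL1 rose from 98.4 and 107.4 to 151 and 143 CPM (log2 fold change 0.51 ± 0.074, adjusted p = 0.00793). TFAP2A, another AP-2 factor, fell from 61.1 and 61.4 to 47.4 and 46.2 CPM (log2 fold change -0.39, adjusted p = 0.0361). FOSL1 thus passed in each experiment as higher.

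Of 28 genes whose products bind or modify keratin filaments or build desmosomes and hemidesmosomes, 22 were tested in the libraries labelled SAE2 kd, with 5 higher and 2 lower and a median of 0.012, where 9.98% of all genes passed in either direction. Among those that passed, the largest rises were in PLEC, ITGB4 and ITGA6, which encode plectin and the integrin subunits that anchor keratin filaments at hemidesmosomes. PLEC went from 1619 and 1729 to 2540.0 and 2263 CPM (log2 fold change 0.52 ± 0.044, adjusted p = 1.70e-10). ITGB4 went from 433 and 469 to 659 and 611 CPM (log2 fold change 0.49), and ITGA6 from 313 and 282 to 398 and 397 CPM (log2 fold change 0.42). CSNK1A1 and FAM83H, which act together on keratin filament organization, rose by 0.24 and 0.16 on the log2 scale. HSPB1, a small heat shock protein that associates with filaments, fell from 177 and 179 to 135 and 126 CPM (log2 fold change -0.45, adjusted p = 1.56e-07), and DST fell by 0.16 on the log2 scale. With TFAP2C siRNA 23 of these genes were tested and 0 passed, with a median of 0.011, where 0.74% of all genes passed. PLEC had 1391 and 1479 CPM against 1624 and 1587 CPM there (log2 fold change 0.16, adjusted p = 0.367).

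**Figure D5:**
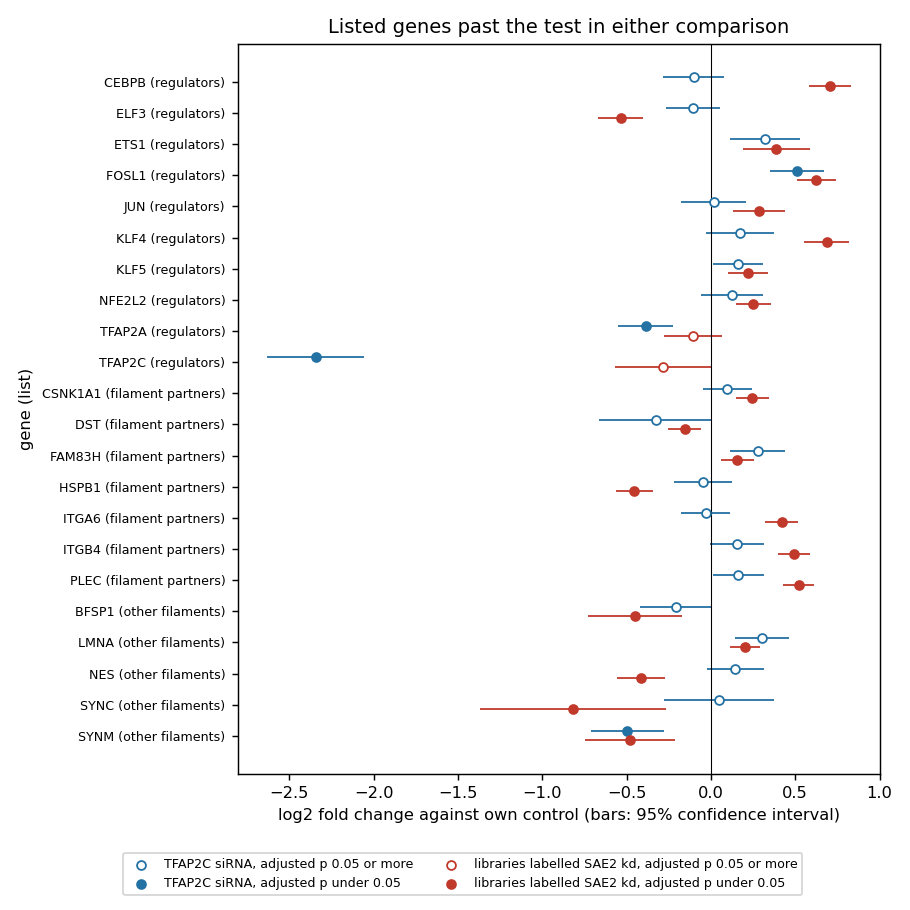
Log2 fold change with its 95% confidence interval of the listed regulators, filament partners and other intermediate filament genes that passed in either experiment, TFAP2C siRNA in blue and the libraries labelled SAE2 kd in red, filled where the adjusted p was under 0.05. FOSL1 and SYNM are filled in both colours, and PLEC, ITGB4, CEBPB and KLF4 lie to the right in red.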

How the data were processed

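The authors aligned 51 bp single-end reads to hg19 with Tophat2 and counted them on RefSeq genes with HTseq (0.9.1 in the submitters' processing notes), and they deposited raw counts per gene, without normalization, in a table for each experiment. The table of TFAP2C siRNA, however, has gene positions of GRCh38, so each table was analysed alone and by its own symbols, and no coordinates were converted. The strand setting of the counting is not given in the sources used here.

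Low genes were removed by filterByExpr, sizes were normalized by TMM, and knockdown and control libraries of an experiment were fitted in edgeR 4.0.16 (R 4.3.3) with a quasi-likelihood test and no replicate term. A standard error is the log2 fold change divided by the root of F. RPKM is CPM over the length that the table gives. The difference between experiments was a contrast in a fit of all 8 libraries over shared symbols. DESeq2 1.42.0 was an alternative. The keratins and gene lists were chosen with earlier results of these data known. All 10 keratins are named, and of each list up to 4 genes per experiment with the largest log2 fold change among those that passed with both knockdown libraries beyond both controls and a mean log2 CPM of at least 1. TFAP2C and UBA2 are named as checks and KRT83 and KRT19P2 as near-identical copies. Other names were chosen after their values were seen. Overlaps of rows leave out rows longer than 1 Mb. The code was tested on simulated counts.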

Additional observations from a re-analysis of the deposited data

Results flagged for a closer look

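KRT80 stood out because its change differed between the experiments by the test of the difference itself. The difference, the log2 fold change with TFAP2C siRNA less that in the libraries labelled SAE2 kd, was -0.7834 (adjusted p = 0.00619, edgeR). The adjusted p was 0.0518 without DMSO control replicate 1 and 0.0573 without replicate 1 of the labelled libraries, and in 10 of 12 alternatives the difference passed. Its level went from 11.7 ± 0.162 to 12.7 ± 0.709 CPM with TFAP2C siRNA (SD, n = 2), and from 16.9 and 17.7 to 34.2 and 29.8 CPM in the libraries labelled SAE2 kd. In each of the 4 libraries of a knockdown the level was above both controls of its experiment. Groups of 2 libraries are too small for a search for single libraries that stand apart.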

How the results depend on the processing

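In the libraries labelled SAE2 kd, KRT7, KRT18, KRT80 and KRT81 passed under every alternative run for them, and KRT8 under 10 of 12. The number of keratins that passed was 5 with the replicate block, and 4 to 6 with single libraries left out. With TFAP2C siRNA it was 0 with the replicate block, 4 without a filter, 1 in a fit of all 8 libraries (KRT8) and 0 to 4 with single libraries left out. The main fits were set up without a replicate term. Deviations of same-numbered libraries correlated at -0.139 and 0.0744 in the experiments, which cannot show whether these libraries were paired. With a crossed replicate block, added after seeing the data, the number of keratins that passed was 2 for TFAP2C siRNA. For the difference of the changes it was 1 with the block and 0 to 1 with libraries left out. Signs changed with single libraries left out for KRT10 with TFAP2C siRNA (-0.034 to 0.12), KRT86 in the labelled libraries (-0.64 to 0.98) and the differences of KRT7 (-0.13 to 0.018), KRT10 (-0.15 to 0.027), KRT19 (-0.029 to 0.18), KRT23 (-0.050 to 0.063) and KRT86 (-1.21 to 0.41). The cause of these shifts was not tested. Over all genes, TFAP2C siRNA had 39 higher and 72 lower, and 142 and 256 without a filter, 48 and 124 with the block, 23 and 62 with library size only, 53 and 60 by DESeq2, 107 and 164 in the fit of all 8 and 1330 and 1495 without TFAP2C siRNA replicate 2. The labelled libraries had 738 and 598, and 450 and 212 by DESeq2, 588 and 805 with library size only and 406 and 290 in the fit of all 8. The difference had 119 and 194, and 61 and 112 with the block. Low counts limit KRT20 and KRT86, and DESeq2 gave no adjusted p for 2 keratins in the labelled libraries and 1 with TFAP2C siRNA.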

Other observations

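Of 16 other intermediate filament genes, 10 were tested in the libraries labelled SAE2 kd, with 1 higher and 4 lower (median log2 fold change -0.35), where 5.52% of all genes were higher and 4.47% lower. NES, the filament gene of progenitor cells, fell from 48.4 and 47.0 to 35.9 and 35.6 CPM (log2 fold change -0.42, adjusted p = 8.57e-05, edgeR). SYNM, which encodes synemin, fell from 9.94 and 10.4 to 6.55 and 8.06 CPM (log2 fold change -0.48, adjusted p = 0.0150), and BFSP1, known from the lens, by 0.45 on the log2 scale. SYNC fell from 2.30 and 2.06 to 1.11 and 1.34 CPM. LMNA, the gene of the A-type nuclear lamins, rose from 612 and 624 to 735 and 685 CPM (log2 fold change 0.20, adjusted p = 0.00180). With TFAP2C siRNA, 10 were tested (median log2 fold change 0.061, 7 above 0) and only SYNM passed, where 0.74% of all genes did. SYNM went from 29.6 and 27.7 to 18.9 and 21.8 CPM (log2 fold change -0.50, adjusted p = 0.0453). VIM, the filament gene of mesenchymal cells, stayed between 1.88 and 7.79 CPM in all libraries.

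Among 16 colon epithelial markers, 5 were tested in the labelled libraries, with 2 higher and 1 lower, where 5.52% and 4.47% of all genes were. CLDN7 rose from 138 and 137 to 169 and 168 CPM (log2 fold change 0.29, adjusted p = 0.000156) and EPCAM by 0.15 on the log2 scale, while CLDN4 fell by 0.17. With TFAP2C siRNA, 6 were tested and 0 passed, where 0.74% of all genes did. Of 12 mesenchymal markers, 4 were tested in the labelled libraries and only FN1 passed, as lower, where 4.47% of all genes were lower. FN1 fell from 14.5 in both controls to 9.38 and 9.83 CPM (log2 fold change -0.59, adjusted p = 0.000339). With TFAP2C siRNA FN1 had 37.9 and 36.9 CPM against 29.5 and 26.2 CPM (log2 fold change -0.43, adjusted p = 0.0572). No blood, endothelial or stratified epithelial marker passed in either experiment, of 2 and 3, 2 and 0, and 7 and 3 tested. Over all genes, 0.74% passed with TFAP2C siRNA and 9.98% in the labelled libraries.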
